A study of Homo sapiens with 18 samples.

Results

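The mitochondrially encoded transcripts are the RNAs copied from the mitochondrial DNA itself. Their members were taken by symbol alone, as every gene of the deposited expression table whose name starts with MT-. No measured value decides which genes belong, but the set was chosen with earlier results of these data known. This gave 37 of 45372 gene symbols: 13 mRNAs, 2 rRNAs and 22 tRNAs. All 37 matched the GENCODE 44 annotation of GRCh38 by symbol.

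The RNA sequencing addressed how acute myeloid leukemia (AML) cells respond to IACS-010759 (IACS), an inhibitor of complex I of the respiratory chain that binds the mitochondrially encoded subunit ND1. MV4-11 and THP1 (written THP-1 in the sample labels) are established AML cell lines that both carry a rearrangement of KMT2A, so that 2 cell lines stand for the disease. Per cell line, 3 libraries came from cells treated with vehicle (DMSO), 3 from an 8 h treatment with 50 nM IACS and 3 from a 24 h treatment at that dose. Which of the timepoints the DMSO cells belong to was not stated, and both timepoints were set against the same 3 DMSO libraries of their cell line. Cells were plated and treated independently for each of the 3 replicates, per the methods of the study.

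Human mitochondrial DNA is a small circle, and both of its strands are copied into long RNAs that run through many genes. The tRNAs lie between most of the other genes, and cutting them out releases the mRNAs and rRNAs. All the proteins encoded there are subunits of the respiratory chain or of ATP synthase. The heavy strand is the template for most genes, while the light strand is the template for MT-ND6 and a few tRNAs. After cutting, most mitochondrial mRNAs receive a short poly(A) tail. MT-ND6 mRNA is known to lack such a tail, and the tails of the rRNAs are very short. The library kit named by the authors selects RNA by its poly(A) tail and does not mark the strand, as background on that kit. In these libraries, however, 5 noncoding RNAs that lack a tail held 39.6% to 60.1% of the expression values. How far the RNA was selected by its tail was not tested.

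The 7 complex I mRNAs are MT-ND1 to MT-ND6 and MT-ND4L. The other 6 mRNAs encode cytochrome b of complex III (MT-CYB), the catalytic core of complex IV (MT-CO1, MT-CO2 and MT-CO3) and parts of ATP synthase (MT-ATP6 and MT-ATP8). MT-RNR1 and MT-RNR2 are the small and large rRNAs of the mitochondrial ribosome. By the annotation, 28 members are heavy-strand and 9 light-strand transcripts, the latter being MT-ND6 and 8 tRNAs.

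The 3' ends of the mRNAs are shown because the tail is part of the message: in 6 of the 13 genes the DNA holds only the start of the stop codon, and the tail supplies the rest. The last 15 bases of these 6 genes, and of MT-CO1 and MT-ND6 for contrast, were read from GRCh38 and are written 5' to 3' along the mRNA, with the bases of the stop codon that the DNA encodes in capitals. MT-ND6 is the mRNA read from the other strand, at chrM:14149-14673 (minus strand), MT-CO1 lies at chrM:5904-7445, MT-ND1 at chrM:3307-4262 and MT-ND3 at chrM:10059-10404 (all plus strand).
MT-ND1: tccccctcaaaccTA
MT-ND2: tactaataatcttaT
MT-CO3: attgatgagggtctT
MT-ND3: tagactgaaccgaaT
MT-ND4: ccgggttttcctctT
MT-CYB: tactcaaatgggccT
MT-CO1: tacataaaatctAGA
MT-ND6: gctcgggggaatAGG

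Neighbouring genes also share bases, which matters for reads that cannot be assigned to either of them. The end of MT-ATP8 and the start of MT-ATP6 overlap by 46 bases at chrM:8527-8572, shown first with the start codon of MT-ATP6 in capitals. MT-ND4L and MT-ND4 overlap by 7 bases at chrM:10760-10766, shown second in capitals behind the bases that precede them.
MT-ATP8 and MT-ATP6: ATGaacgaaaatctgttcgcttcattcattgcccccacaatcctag
MT-ND4L and MT-ND4: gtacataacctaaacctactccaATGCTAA

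Expression was deposited as TPM, a unit in which the reads of each gene are scaled by gene length and every library has the same sum, so that levels of different genes can be compared per length. A TPM value is a share: 5 noncoding RNAs of high level (RPPH1, RMRP, RN7SK, RN7SL2 and RN7SL1) held 39.6% to 60.1% of the TPM, and every other value depends on how much they took. With the annotated gene lengths, all 666 member values came out as whole numbers of reads or read pairs (called reads here) within a tolerance of 0.02. The mitochondrial transcripts held 148838 to 322669 reads per library, and the genes whose reads could be recovered held 11456268 to 15325397 per library, a lower bound on depth. Counting error is therefore small against the spread between libraries for most mRNAs and the rRNAs, and large for the tRNAs. MT-ND6 and MT-ATP8 had as few as 75 and 129 reads in a library, so that their counting error is larger. Of 10 myeloid leukemia markers, 9 reached a mean of 1 TPM in MV4-11 and 8 in THP1, with CD14 below it in both and MEIS1 in THP1 only. Of 12 markers of other cell types, PECAM1 and GP9 did so in each cell line. In bulk RNA, a change in the number of mitochondria per cell and a change in the RNA of each mitochondrion cannot be told apart, nor can fewer cells of a kind and less RNA per cell.

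Most mitochondrial reads fell to genes annotated as heavy-strand and to complex IV, and the strand of the reads themselves was not known. Over all 18 libraries, the 3 complex IV mRNAs held 66.4% of the mitochondrial reads, the 7 complex I mRNAs 11.0%, MT-CYB 2.53%, the ATP synthase mRNAs 1.63%, the 2 rRNAs 18.4% and the 22 tRNAs 0.00430%. Heavy-strand transcripts held 99.9% of these reads and light-strand transcripts 0.0963%, or 3695 of 3837297 reads. MT-CO1 was highest with a mean of 5513 TPM over all libraries and MT-CO3 next with 4585 TPM, and together they made 59.6% to 73.9% of the mRNA TPM of a library. MT-RNR2 had a mean of 2133 TPM and MT-CO2 of 1653 TPM. The complex I mRNAs of the heavy strand ranged from 225 TPM for MT-ND2 to 604 TPM for MT-ND4. MT-ATP8 had 86.9 TPM and MT-ND6 36.5 TPM, the lowest of the 13 mRNAs.

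**Figure D1:**
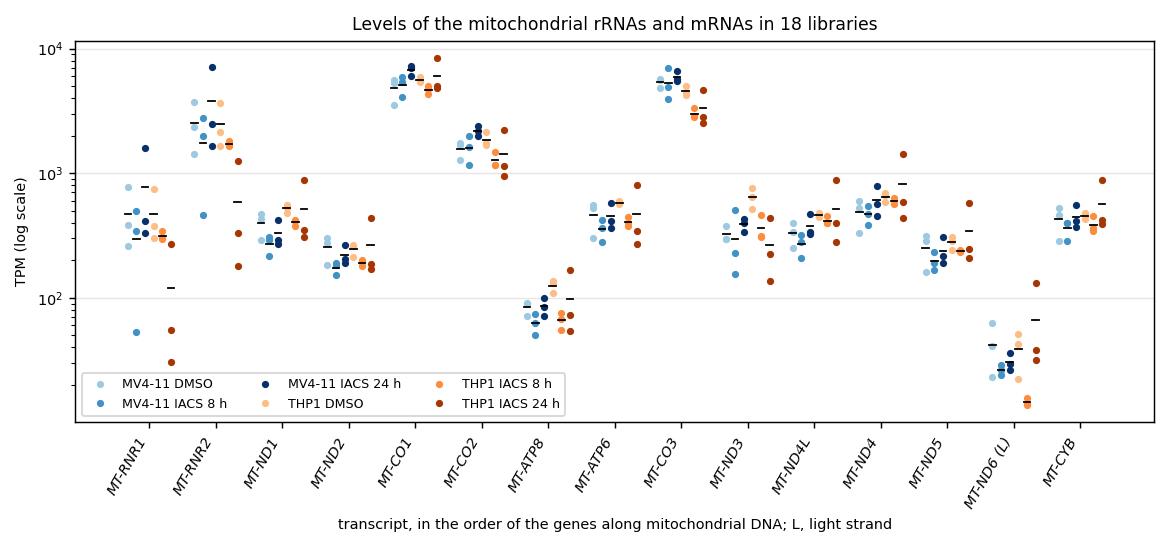
TPM on a log scale of the 2 rRNAs and 13 mRNAs, in the order of their genes along mitochondrial DNA, with a point for each of the 18 libraries, colours for the 6 groups and a black line for each group mean. The complex IV mRNAs stand at the top, with MT-CO1 between 3528 and 8393 TPM, MT-ND6 at the bottom, and the rRNAs hold the widest range over all libraries.

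The top and the bottom of the order in DMSO held the same transcripts in both cell lines. In MV4-11, MT-CO3 (5400.3 TPM ± 487, SD, n = 3) and MT-CO1 (4837 ± 1144) overlapped at the top. In THP1, MT-CO1 (5609.8 TPM ± 247, SD, n = 3) was above MT-CO3 (4576 ± 413) in every library. Next in both came MT-RNR2 and MT-CO2, which overlapped, and then a gap to MT-ND4, which no library bridged. From MT-ND4 down to MT-ND5 in MV4-11, 9 transcripts each overlapped their neighbours in the order. MT-ATP8 and then MT-ND6 closed the order in both, each apart from the transcript above it.

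The light-strand mRNA MT-ND6 was rare but well counted in most libraries. It had 139 to 338 reads per library in MV4-11 DMSO and 133 to 261 in THP1 DMSO, against 70985 to 94507 and 79082 to 96094 for MT-CO1. Its log2 TPM was lower than the mean of the 12 heavy-strand mRNAs in all 18 libraries, by -2.96 in the nearest and -5.16 in the furthest. MT-ND5, which lies next to MT-ND6 on the opposite strand, was higher than MT-ND6 by 1.96 to 4.08 on the log2 TPM scale. The kit does not mark the strand, and the strand setting of the counting was not stated. Reads of MT-ND6 and of RNA copied from the opposite strand therefore cannot be told apart. The share of reads that lack of a tail leaves out was not tested.

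The tRNAs were almost unseen. All 22 together had 165 reads in the 18 libraries, 1 to 28 per library, of which 115 were from the 14 heavy-strand tRNAs and 50 from the 8 light-strand tRNAs. The tRNAs are 59 to 75 bases long, shorter than the 100-base reads. MT-TV, the valine tRNA that lies between the rRNAs, had 43 reads and MT-TM, the methionine tRNA upstream of MT-ND2, had 40, together 50.3% of all tRNA reads. The highest tRNA count in any library was 11 reads of MT-TM in MV4-11 IACS 24 h replicate 3, where the other libraries of that group had 0 and 1. Of the heavy-strand tRNAs, 7 (MT-TD, MT-TI, MT-TW, MT-TK, MT-TR, MT-TL2 and MT-TT) had 0 reads in every library, which allows up to 3 reads in each, and all 8 light-strand tRNAs had at least 1 read. No order of the tRNAs or of the strands was read from such counts, and that limit covers counting error only.

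Tests were run by limma on log2(TPM + 1) over all genes whose mean reached 1 TPM, with Benjamini-Hochberg adjustment over all of them. A call needed an adjusted p below 0.05 and a change beyond 0.58 on the log2 scale, and the nominal level used below takes the p before adjustment with the same fold threshold. All 13 mRNAs and both rRNAs passed the filter on low values. Of the tRNAs, 5 passed it in MV4-11 (MT-TF, MT-TV, MT-TM, MT-TA and MT-TN), 3 in THP1 (MT-TV, MT-TM and MT-TS2) and 2 in fits over both cell lines (MT-TV and MT-TM). The remaining tRNAs were not tested.

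In MV4-11 after 8 h of IACS, most mitochondrial mRNAs were somewhat lower than in DMSO, but no member passed the test. The median log2 fold change of the 13 mRNAs was -0.29, with 12 of them below 0, while that of all 13542 genes tested was 0.061 and 66.9% of them were above 0. None of the 20 members tested was called, with 0.0148% of all genes called. At the nominal level (unadjusted p) there was 1 member, MT-TN with 0, 0 and 1 reads against 3, 2 and 1 in DMSO, beside 0.672% of all genes. Groups of 3 libraries were apart for 0 of the 13 mRNAs, and for 8.79% of all genes. MT-ND1, which encodes the subunit that IACS binds, had 472, 432 and 289 TPM in DMSO and 215, 291 and 310.4 TPM after 8 h, so that the highest treated library was above the lowest control. Its log2 fold change was -0.53 (SE 0.22), with a limma adjusted p of 0.982. MT-ND2, another membrane subunit of complex I, had 303, 276 and 183 TPM in DMSO and 151, 191 and 183 TPM after 8 h. The highest treated library was just above the lowest control, and the log2 fold change was -0.51 (SE 0.19) with a limma adjusted p of 0.982. MT-ATP8, a small subunit of ATP synthase, was at 89.3, 90.9 and 71.8 TPM and then at 50.5, 62.4 and 74.0 TPM, or -0.43 on the log2 scale (SE 0.17, limma adjusted p 0.982).

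After 24 h in MV4-11, MT-CO1 and MT-CO2 were higher than in DMSO in every library, and again no member was called. MT-CO1, the largest subunit of complex IV, had 5646, 5337 and 3528 TPM in DMSO and 6069.8, 6935 and 7252 TPM after 24 h. The groups did not overlap, and the log2 fold change was 0.51 (SE 0.22, limma adjusted p 0.375). MT-CO2, which takes electrons from cytochrome c, had 1684, 1750.0 and 1275 TPM in DMSO and 1998, 2398 and 2168 TPM after 24 h. These groups were apart too, at 0.49 on the log2 scale (SE 0.20, limma adjusted p 0.366). Such separation upward held for 2 of the 13 mRNAs and for 19.4% of all genes. None of the 20 members tested was called, nor did any pass at the nominal level, where the shares of all genes were 0.0886% and 1.99%. The 13 mRNAs had a median log2 fold change of 0.093, with 8 above 0, against 0.077 for all genes, 66% of which were above 0.

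Between 8 h and 24 h in MV4-11, all 13 mRNAs were higher at 24 h in the fit, with a median log2 difference of 0.34 against 0.017 for all genes, 56% of which were above 0. No member was called, and 0 of all 13542 genes were (0%), while 0 members and 0.465% of all genes passed at the nominal level. The groups were apart for MT-CO1, MT-CO2 and MT-ND4L, all higher at 24 h, beside 2.23% of all genes. MT-ND4L, for example, had 209, 318 and 279 TPM at 8 h and 328, 468 and 339 TPM at 24 h. The log2 fold changes of the 3 were 0.41 (SE 0.22), 0.49 (SE 0.20) and 0.49 (SE 0.21), and that of MT-ATP8, whose groups overlapped, was 0.45 (SE 0.17), each with a limma adjusted p of 1.00. In the 8 h group, replicate 1 was the lowest library for 12 of the 13 mRNAs.

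In THP1 after 8 h, all 13 mRNAs were lower than in DMSO in the fit, with a median log2 fold change of -0.36 against -0.12 for all 13928 genes tested, 16.4% of which were above 0. The groups were apart for 10 of the 13, all lower, beside 4.06% of all genes. None of the 18 members tested was called, with 0.0144% of all genes called, and 5 members passed at the nominal level, beside 0.761% of all genes. These 5 were MT-ND6, MT-ATP8, MT-ND3, MT-CO3 and MT-TS2, the last of which had 1, 0 and 2 reads in DMSO and 0 in each treated library.

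MT-ND6 differed most among the mRNAs at this timepoint. Its level was 42.2, 51.4 and 22.4 TPM in THP1 DMSO and 14.2, 15.6 and 13.9 TPM after 8 h, the latter from 96, 75 and 102 reads. All 3 treated libraries were below every control and close to each other, and the limma log2 fold change was -1.27 (SE 0.43) at an adjusted p of 0.941. With so few reads, counting error is not small against that spread, and the closeness is no measure of precision. MT-ATP8 was at 135, 132 and 109 TPM in DMSO and at 67.3, 75.6 and 55.5 TPM after 8 h, lower by -0.92 on the log2 scale (SE 0.31, limma adjusted p 0.941). MT-ND3, a small membrane subunit of complex I, had 760.5, 516 and 639 TPM and then 314, 459.9 and 307 TPM, lower by -0.83 on the log2 scale (SE 0.33, limma adjusted p 0.941). In both, the groups were apart. MT-CO3, the third of the complex IV core subunits, had 5022, 4502 and 4206 TPM in DMSO and 2861, 3328 and 2829.5 TPM after 8 h, lower by -0.61 on the log2 scale (SE 0.19, limma adjusted p 0.941).

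The 6 further mRNAs with groups apart were lower by smaller amounts. Their log2 fold changes were -0.55 for MT-CO2, -0.51 for MT-ATP6, -0.36 for MT-ND1, -0.36 for MT-ND2, -0.27 for MT-CO1 and -0.23 for MT-ND5, each with a limma adjusted p of 0.941. MT-ND1 for example had 555, 529 and 480.2 TPM in THP1 DMSO and 380.0, 417 and 418 TPM after 8 h. The share of all TPM in mitochondrial transcripts was 1.90% ± 0.125 (SD, n = 3) in DMSO and 1.41% ± 0.0902 after 8 h, without overlap. The 5 noncoding RNAs held 50.6% ± 4.85 of the TPM in DMSO and 54.2% ± 5.97 after 8 h. Without them the mitochondrial share was 3.48% to 4.43% and then 2.89% to 3.48%, so that the gap between the groups nearly closed. That share includes the rRNAs. The share of the mitochondrial mRNAs alone, also without the noncoding RNAs, was 3.10% to 3.43% in THP1 DMSO. After 8 h it was 2.48% to 2.94%, so that the groups stayed apart. The part of the 5 noncoding RNAs in the result was not tested beyond that.

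**Figure D2:**
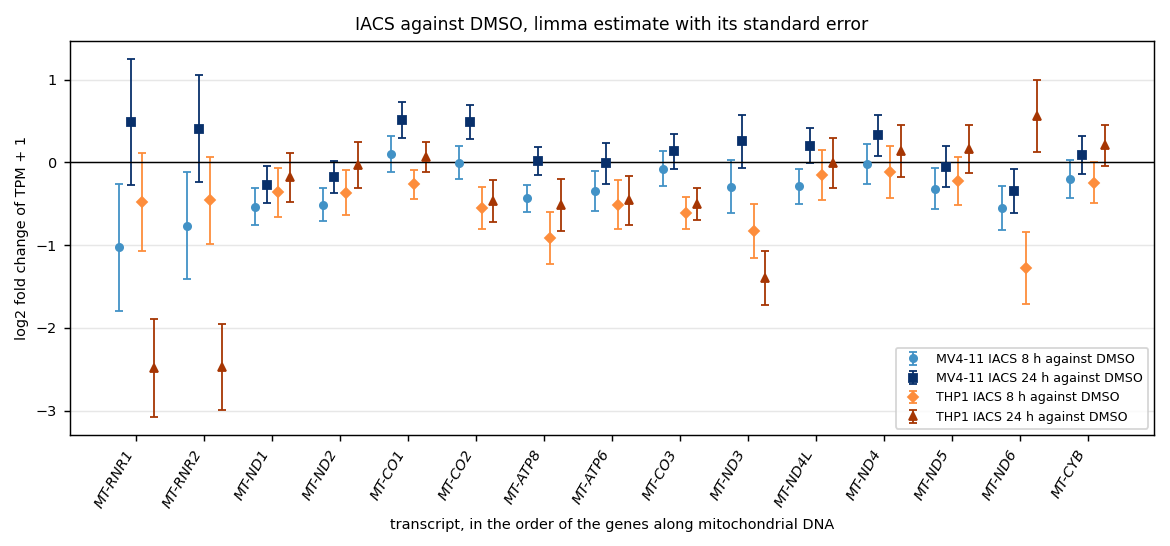
Log2 fold change of TPM + 1 for IACS against DMSO, with its standard error from limma, for the 2 rRNAs and 13 mRNAs in 4 comparisons marked by colour and symbol. After 8 h in THP1 all 13 mRNAs lie below 0, and after 24 h in THP1 the rRNAs and MT-ND3 lie furthest below, at -2.48, -2.47 and -1.40.

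After 24 h in THP1, both rRNAs and MT-ND3 were lower than in every control, and their calls depended on whether the replicate number was a block. None of the 18 members tested was called without a block, beside 0.0431% of all genes, while 3 passed at the nominal level, beside 2.2% of all genes. The libraries of THP1 DMSO and 24 h with the same replicate number deviated together weakly, with correlations of 0.146, 0.157 and 0.324. The fit with the replicate number as a block is therefore given beside the other. Its block spans all 9 THP1 libraries, including those of 8 h, whose correlation with DMSO was as low as 0.0440. In that fit, 2.13% of all genes were called and the same 3 members fell. Scaling by the median of ratios left MT-ND3 called (-1.26, limma adjusted p 0.0432, beside 0.711% of all genes), and with the block added MT-ND3 (adjusted p 0.0281) and MT-RNR2 (-2.34, adjusted p 0.0404), beside 1.31%. By rank, each of the 3 had a p of 0.0171 in the Dunn test without adjustment, beside 1.18% of all genes past that test and the fold threshold, and of 0.0509 in the Kruskal-Wallis test over the 3 groups of the cell line.

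MT-RNR2, the large rRNA, had 2144, 1647 and 3649 TPM in THP1 DMSO and 331, 1257 and 179.7 TPM after 24 h. Its log2 fold change was -2.47, with an SE of 0.52 and a limma adjusted p of 0.194 without the block and an SE of 0.49 and an adjusted p of 0.0116 with it. MT-RNR1, the small rRNA, had 375, 302 and 746 TPM and then 55.1, 272 and 30.7 TPM, so that here too the groups were apart. In the same libraries the nuclear RNA5-8SN genes, whose rRNA has no tail, were at 419 to 638 TPM in DMSO and at 7.07 to 103 TPM after 24 h, and their part in the rRNA result was not tested. The log2 fold change of MT-RNR1 was -2.48 (SE 0.59), with a limma adjusted p of 0.312 without the block and 0.0168 with it. MT-ND3 had 760.5, 516 and 639 TPM in DMSO and 226, 436 and 138 TPM after 24 h, with no overlap. Its log2 fold change was -1.40 (SE 0.33), with a limma adjusted p of 0.309 without the block and 0.00888 with it. MT-ND3 was thus the only mRNA of 13 with groups apart, beside 10.2% of all genes apart in that direction, and MT-CO3 came next by p, at 2809, 4665 and 2530.1 TPM after 24 h or -0.51 on the log2 scale against DMSO (SE 0.19, limma adjusted p 0.538).

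Replicate 2 of THP1 IACS 24 h stood apart from the other 2 libraries of its group. It was the highest of the 3 for 13 of 13 mRNAs, and its mitochondrial transcripts held 2.34% of the TPM against 1.22% and 1.08% in replicates 1 and 3. Without it and without a block, limma called 4 members lower than in DMSO, beside 0.115% of all genes: MT-RNR1 at -3.38 (adjusted p 0.001), MT-RNR2 at -3.26 (adjusted p 0.000669), MT-ND3 at -1.83 (adjusted p 0.0153) and MT-ATP6 at -0.93 (adjusted p 0.0446). MT-ATP6, the proton channel subunit of ATP synthase, had 596, 573 and 567 TPM in DMSO and 342, 811 and 269 TPM after 24 h, so that replicate 2 alone was above the controls. Without replicate 3 of the 24 h group the differences of the rRNAs were smaller, at -1.83 for MT-RNR1 and -1.86 for MT-RNR2, with limma adjusted p of 0.560 and 0.288. The calls with the block rested on THP1 DMSO replicate 1: without it the adjusted p was 0.0641 for MT-RNR1, 0.0504 for MT-RNR2 and 0.0504 for MT-ND3, at -2.47, -2.44 and -1.20. With the block and any 1 of the other 5 libraries left out, the adjusted p of these 3 members stayed below 0.05. Their log2 fold changes then ran from -3.54 to -1.60, from -3.39 to -1.68 and from -1.86 to -1.05. How many of all genes such fits called was not counted. Over the 13 mRNAs, the median log2 fold change with all libraries was -0.029, against -0.12 for all genes, with 5 above 0 and 8 below, while 27.1% of all genes were above 0.

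Between 8 h and 24 h in THP1, MT-ND6 differed in the direction opposite to that of the rRNAs. MT-ND6 had 14.2, 15.6 and 13.9 TPM at 8 h and 31.7, 131 and 38.2 TPM at 24 h, with every library of the later timepoint higher. The log2 fold change was 1.83, with an SE of 0.43 and a limma adjusted p of 0.333 without the replicate block. These libraries also deviated together by replicate number, and with the block MT-ND6 rose, with an SE of 0.29 and an adjusted p of 0.0105, beside 0.818% of all genes called. Under median-of-ratios scaling it was called as well, with a limma adjusted p of 0.0484 (0.481% of all genes) and of 0.0201 with the block (0.933%). MT-ND6 was 1 of 13 mRNAs with groups apart, which in that direction held for 5.11% of all genes. In the fit 12 of 13 mRNAs were above 0, as were 51.5% of all genes. Without replicate 2 of the 24 h group, the library with 131 TPM, the log2 fold change of MT-ND6 was 1.21 with a limma adjusted p of 0.386 without the block and 1.35 with an adjusted p of 0.00215 with it. With the block and without replicate 2 of the 8 h group, MT-ND6 was not called, at 1.45 and an adjusted p of 0.0681. The share of all genes called in blocked fits without a library was not counted. By rank MT-ND6 had an unadjusted p of 0.0369 in the Dunn test, beside 0.567% of all genes past that test and the fold threshold, and of 0.0665 in the Kruskal-Wallis test. At 24 h the level of MT-ND6 overlapped that of DMSO. MT-RNR1 and MT-RNR2 were lower at 24 h than at 8 h in every library, by -2.00 (SE 0.59) and -2.01 (SE 0.52) on the log2 scale with limma adjusted p of 0.605 and 0.415, and 2.58% of all genes were apart in that direction. Without replicate 2 of the 24 h group, limma called both rRNAs lower, at -2.90 (adjusted p 0.00548) and -2.80 (adjusted p 0.00377), beside 0.065% of all genes. Without replicate 3 of that group the differences were -1.35 and -1.40, with adjusted p of 0.910 and 0.728. With all libraries and no block, 0 members were called and 4 passed at the nominal level (MT-ND6, MT-RNR1, MT-RNR2 and MT-TS2), beside 0.00718% and 1.19% of all genes.

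**Figure D3:**
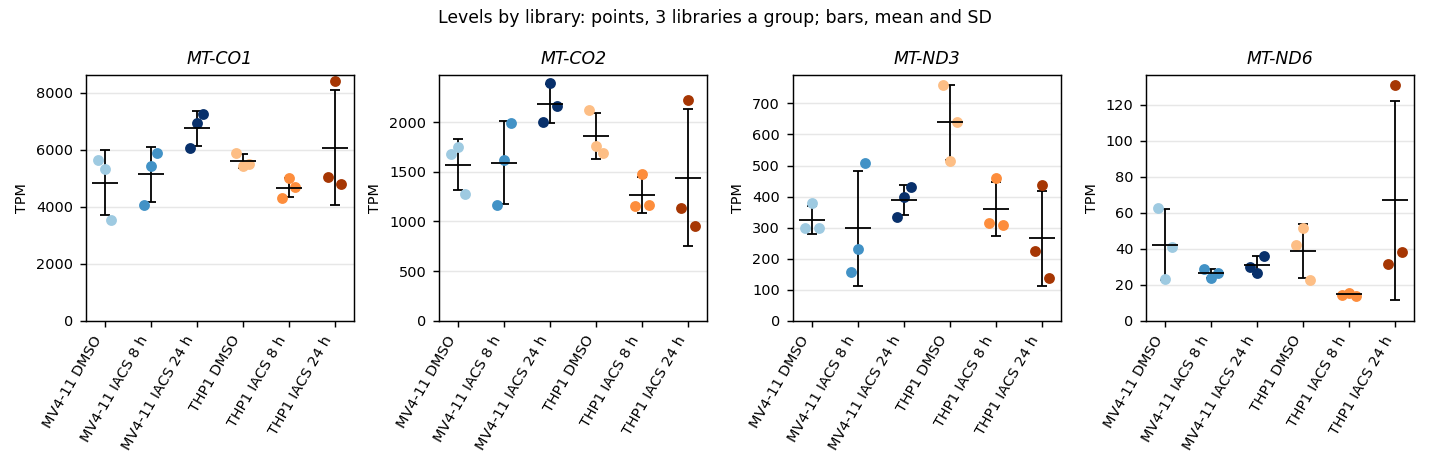
TPM of MT-CO1, MT-CO2, MT-ND3 and MT-ND6 in each library, with points for the 3 libraries of a group and bars for the mean and SD. MT-ND6 sits between 13.9 and 15.6 TPM in THP1 after 8 h and between 31.7 and 131 TPM after 24 h, and MT-ND3 lies between 516 and 760.5 TPM in THP1 DMSO and between 138 and 436 TPM after 24 h.

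For MT-CYB, MT-ND4 and MT-ND4L the groups overlapped in all 4 comparisons with DMSO. MT-CYB had a mean of 426 TPM ± 125 (SD, n = 3) in MV4-11 DMSO, 363 ± 65.5 after 8 h and 447 ± 96.7 after 24 h, and in THP1 456 ± 25.5, 387 ± 56.5 and 564 ± 272. MT-ND4, a proton-pumping subunit of complex I, had 485 TPM ± 139, 469 ± 82.3 and 607 ± 173 in MV4-11 and 649 ± 56.8, 600.0 ± 35.8 and 815 ± 530.4 in THP1. Replicate 2 after 24 h in THP1 was the highest of all libraries for MT-CYB, with 878 TPM, and for MT-ND4, with 1421 TPM. MT-ND4L, whose gene runs into that of MT-ND4, had 462 TPM ± 16.8 in THP1 DMSO and 416 ± 30.2 after 8 h, and MT-ND5 had 279 ± 32.6 and 237 ± 5.48. As a share of the mRNA reads of a library, complex I ran from 8.48% in MV4-11 IACS 24 h replicate 3 to 19.5% in THP1 IACS 24 h replicate 2.

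Over the 18 libraries the rRNAs had the widest range of the 15 longer transcripts. MT-RNR2 ranged 39.8-fold and MT-RNR1 51.4-fold. In MV4-11, MT-RNR2 was at 2352, 3741 and 1436 TPM in DMSO, at 459, 2005 and 2779 TPM after 8 h and at 2474, 7155 and 1659 TPM after 24 h, and all 3 groups overlapped. The rRNAs kept nearly the same order in a library, since MT-RNR1 and MT-RNR2 ranked the 3 libraries alike in 5 of 6 groups. Nuclear RNAs without a tail are given beside them. The short rRNA of the cytosolic ribosome that the RNA5-8SN genes encode, summed over 3 gene copies, was at 431, 419 and 638 TPM in THP1 DMSO, at 506, 411 and 280.2 TPM after 8 h and at 24.6, 103 and 7.07 TPM after 24 h. It ranged 331-fold over all libraries, and its highest library was that of MT-RNR2 in 4 of 6 groups, as was its lowest. In MV4-11 IACS 8 h replicate 1, where MT-RNR2 was lowest in that cell line, RNA5-8SN was at 59.9 TPM against 523 and 473 TPM in the other 2 libraries of the group. The 5 noncoding RNAs of high level, which also lack a tail, ranged 1.52-fold in their summed share of the TPM, from 39.6% to 60.1% over all libraries. A summed share of that size cannot range as widely as a single RNA, so the ranges are not compared. In THP1 that share was 50.6% ± 4.85 (SD, n = 3) in DMSO and 55.3% ± 4.41 after 24 h.

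**Figure D4:**
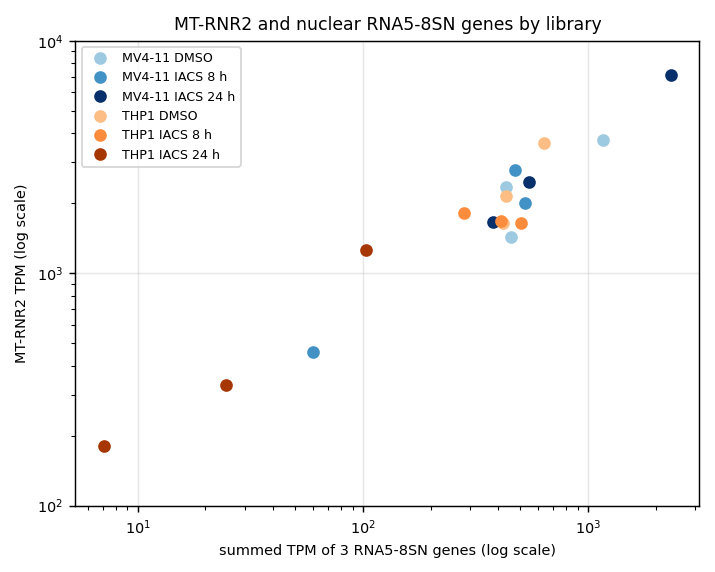
MT-RNR2 TPM against the summed TPM of the nuclear RNA5-8SN genes, both on log scales, with a point for each of 18 libraries coloured by group. The THP1 IACS 24 h libraries lie at the lower left, with 179.7 to 1257 TPM of MT-RNR2, together with 1 library of MV4-11 IACS 8 h.

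Set against the mean of the other mitochondrial mRNAs, the mean of the complex I mRNAs was slightly lower after IACS in MV4-11 at both timepoints, although single members went either way. The measure was the mean log2 TPM of the 7 complex I mRNAs minus that of the other 6 in the same library, which does not depend on the abundant noncoding RNAs, and as a score over members it was given no test. In MV4-11 it was -1.84, -2.06 and -1.93 in DMSO, -2.09, -2.14 and -2.21 after 8 h and -2.16, -2.10 and -2.22 after 24 h. Every treated library was below every control, by -0.20 (SE 0.072) at 8 h and -0.21 (SE 0.072) at 24 h on average, which is a ratio of 0.870 and 0.862. In THP1 it was -1.79, -1.76 and -1.92 in DMSO, -1.77, -1.83 and -1.76 after 8 h and -1.72, -1.42 and -1.81 after 24 h. Those groups overlapped, with differences of 0.035 (SE 0.052) and 0.17 (SE 0.13). The THP1 difference at 24 h turned to -0.032 without MT-ND6, MT-ND4L and MT-ATP8 and to -0.27 with medians in place of means.

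MT-ND1 and MT-ND2 were the complex I mRNAs that stood lower within MV4-11 at both timepoints. Relative to the mean of all 13 mRNAs in the same library, MT-ND1 was at -0.18, -0.14 and -0.28 on the log2 scale in DMSO, at -0.47, -0.44 and -0.47 after 8 h and at -0.56, -0.37 and -0.73 after 24 h. MT-ND2 was at -0.82, -0.78 and -0.93 in DMSO, at -0.98, -1.05 and -1.23 after 8 h and at -1.18, -1.04 and -1.12 after 24 h. For both, every treated library was below every control. Against the same mean, MT-ND4 went the other way on average, from 0.077 in DMSO to 0.33 after 8 h and 0.32 after 24 h with overlap, and MT-ND4L at 24 h was above every control, at a mean of -0.35 against -0.46. MT-ND3 went from -0.47 to -0.30 at 24 h with overlap, and MT-ND5 and MT-ND6 had lower means at both timepoints with overlap. MT-CO1, relative to the same mean, was at 3.40, 3.49 and 3.34 in DMSO, at 3.77, 3.79 and 3.78 after 8 h and at 3.81, 3.66 and 4.01 after 24 h. On this measure MT-CO1 was higher in every treated library of MV4-11 than in any control, by 0.37 (SE 0.046) and 0.42 (SE 0.11). In THP1, MT-CO1 was at 3.31, 3.29 and 3.48 in DMSO and at 3.55, 3.59 and 3.64 after 8 h, higher by 0.23 (SE 0.067), while at 24 h its 3.70, 3.27 and 3.87 overlapped DMSO. As a share of the summed mRNA TPM, MT-CO1 held 33.8%, 33.3% and 29.8% in MV4-11 DMSO, 36.6%, 37.1% and 33.4% after 8 h and 37.0%, 36.6% and 38.6% after 24 h. By that share the MV4-11 groups overlapped at 8 h and were apart at 24 h. In THP1 the share was 34.0%, 34.8% and 36.3% in DMSO, 38.3%, 38.3% and 40.0% after 8 h and 42.6%, 38.3% and 45.3% after 24 h, above every control at both timepoints.

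MT-ND3 was low against the other mRNAs after 24 h in THP1. Relative to the mean of the mRNAs it was at 0.35, -0.10 and 0.38 in DMSO, at -0.23, 0.15 and -0.29 after 8 h and at -1.25 to -0.78 after 24 h. All libraries at 24 h were below all others of the cell line, including replicate 2, where the other mRNAs were high. MT-CO3, the mRNA gene just upstream, was lower on this measure too, at 3.08, 3.02 and 3.09 in DMSO and 2.86, 2.42 and 2.95 after 24 h, a difference of -0.32 (SE 0.16) against -1.22 (SE 0.21) for MT-ND3. MT-ND4, which lies behind MT-ND4L on the same strand, was 588, 1421 and 436 TPM at 24 h and 693, 669.9 and 585 TPM in DMSO. The difference between MT-ND3 and MT-ND4 in log2 TPM was 0.13, -0.38 and 0.13 in DMSO and -1.38, -1.71 and -1.66 after 24 h, with no overlap.

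**Figure D5:**
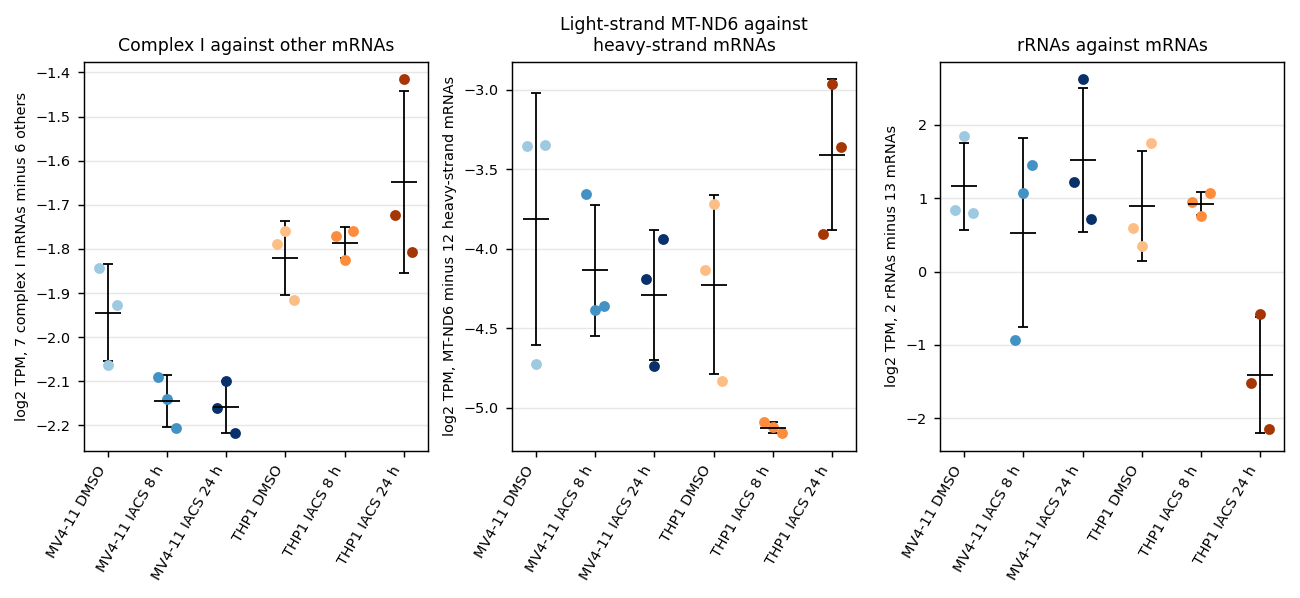
Differences in mean log2 TPM within each library, for complex I against the other mRNAs, MT-ND6 against the 12 heavy-strand mRNAs and the rRNAs against the mRNAs, with a point for each library and bars for the group mean and SD. In MV4-11 the treated libraries lie below DMSO in the first panel, and in THP1 MT-ND6 lies lowest after 8 h, at -5.16 to -5.09, and the rRNAs lowest after 24 h.

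The light strand was compared with the heavy strand by MT-ND6 minus the mean of the 12 heavy-strand mRNAs, in log2 TPM. In THP1 it was -4.14, -3.72 and -4.83 in DMSO, -5.09, -5.12 and -5.16 after 8 h and -3.91, -2.96 and -3.36 after 24 h. After 8 h every library was below DMSO, by -0.90 (SE 0.33) on average, and after 24 h every library was above those of 8 h, by 1.72 (SE 0.27). In MV4-11 it was -3.36, -4.73 and -3.35 in DMSO, -3.66, -4.38 and -4.36 after 8 h and -4.19, -4.74 and -3.94 after 24 h, and the 3 groups overlapped. Replicate 2 of MV4-11 DMSO was apart from the other controls, with 23.1 TPM of MT-ND6 against 62.3 and 41.0 TPM. The rRNAs minus the mRNAs were 0.59, 0.35 and 1.75 in THP1 DMSO and -1.52, -0.57 and -2.14 after 24 h, lower by -2.30 (SE 0.63), and in MV4-11 the groups overlapped at both timepoints.

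The responses of the cell lines were compared by an interaction over all 18 libraries, in which the IACS groups of both were set against their own DMSO. At 8 h no member of 17 tested was called and none passed at the nominal level, beside 0.00796% and 1.47% of 12555 genes. At 24 h again no member was called, beside 0.00796% of all genes, and 5 passed at the nominal level, beside 4.02%. For these 5 the log2 fold change was lower in THP1 than in MV4-11, by -2.97 for MT-RNR1 (SE 1.08), -2.88 for MT-RNR2 (SE 0.93), -1.66 for MT-ND3 (SE 0.51), -0.95 for MT-CO2 (SE 0.35) and -0.64 for MT-CO3 (SE 0.29), with limma adjusted p from 0.61 to 0.697. The median interaction of the mRNAs was -0.21 at 24 h, against -0.20 for all genes.

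Between the cell lines in DMSO, MT-ND3 was the member that passed the test, being higher in THP1. It had 298, 378 and 298 TPM in MV4-11 and 760.5, 516 and 639 TPM in THP1, with no overlap. The log2 difference was 0.96 (SE 0.36), with a limma adjusted p of 0.0347 that ranged from 0.00897 to 0.113 over the alternatives. Without MV4-11 DMSO replicate 1 or 3, or without THP1 DMSO replicate 1 or 3, MT-ND3 was no longer called and no other member was. Without the 5 noncoding RNAs limma also called MT-ATP8 (0.65, adjusted p 0.0241, beside 34.1% of all genes), and without a filter on low values it called MT-TS1, which had 3 reads in all, and not MT-ND3 (19.2% of 30823 genes). With all libraries and the filter, MT-ND3 was 1 of 17 members tested, beside 31.5% of all genes, and 1 at the nominal level, beside 32.1%. For 5 of the 13 mRNAs (MT-ND1, MT-ATP8, MT-ATP6, MT-ND3 and MT-ND4L) every THP1 library was higher than every MV4-11 library, beside 26.7% of all genes apart in that direction. In the fit 10 of 13 were above 0, as were 49.2% of all genes. The log2 differences of the other 4 were 0.42, 0.57, 0.38 and 0.51 in that order, with limma adjusted p of 0.253, 0.0959, 0.328 and 0.153.

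Genes of the nucleus that serve mitochondrial gene expression were listed by role, and none was called in any of the 4 comparisons with DMSO or between timepoints. The lists hold genes of mitochondrial transcription (8 of 8 tested), RNA processing (10 of 11), RNA stability and decay (8 of 8), DNA replication (9 of 9), nuclear regulators of mitochondrial genes (7 of 8) and the nuclear subunits of complex I (37 of 37). After 24 h in THP1 the median log2 fold change of the nuclear complex I subunits was -0.29 with 0 of 37 above 0. That of all genes was -0.12, with 27.1% above 0. The lists of transcription, RNA processing, stability and decay, and replication also had 0 genes above 0, with medians of -0.17, -0.26, -0.23 and -0.28. Of the 7 regulators 1 was above 0, and their median was -0.16. The median of the complex I subunits was -0.083 in THP1 after 8 h, and in MV4-11 -0.026 after 8 h and -0.19 after 24 h. At the nominal level 1 of the 79 listed genes tested passed after 24 h in THP1, NDUFS6, beside 2.2% of all genes, and none passed in the other 3 comparisons with DMSO or between timepoints. NDUFS6, a subunit of the part of complex I that takes electrons from NADH, had the lowest mean of the 37 over the 4 comparisons, at -0.39. After 24 h in THP1 its log2 fold change was -0.74 (limma adjusted p 0.435). With the replicate block NDUFS6 was called lower (adjusted p 0.00255), as 1 of the 79 listed genes, beside 2.13% of all genes. For transcription the means over the 4 comparisons ran from -0.22 for TFB2M, an initiation factor, to 0.047 for MTERF4. For RNA processing they ran from -0.23 for HSD17B10, part of the enzyme that cuts tRNAs out at their 5' ends, to 0.0018 for FASTKD1, and for stability and decay from -0.25 for PNPT1, an exonuclease, to -0.026 for REXO2. For replication they ran from -0.29 for SSBP1, which binds single-stranded DNA, to -0.047 for the polymerase POLG, and for the regulators from -0.20 for PPRC1 to 0.0021 for NRF1.

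In DMSO, 13 of these nuclear genes differed between the cell lines by the limma test, 12 of them lower in THP1, and without THP1 DMSO replicate 1 there were 20. Among those lower were ELAC2, which cuts tRNAs at their 3' ends (-1.52), FASTKD5, which acts on mRNAs not bordered by tRNAs (-1.01), the helicase TWNK, the nuclease MGME1 (-0.59) and the regulator MYC (-1.37). The others lower were the complex I subunits NDUFA9, NDUFA13, NDUFS7, NDUFB7, NDUFA11, NDUFC2 and NDUFA3, at -1.05 to -0.59, while NDUFC1 was higher by 0.94. Of all genes, 16.1% were called lower and 15.4% higher.

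Nuclear copies of mitochondrial sequence could also take reads from the members. The 11 genes named MTRNR2L, which resemble MT-RNR2, were all at or near 0, the highest being MTRNR2L1 with a mean of 0.0572 TPM, and 5 of them had 0 in every library. Copies without a gene name of their own were not analysed here.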

How the data were processed

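RNA sequencing was measured in 18 libraries of 2 cell lines. The authors deposited TPM per gene symbol. According to their methods and the submitters' processing notes, paired-end reads from TruSeq libraries were trimmed, aligned to GRCh38 and quantified in CLC Genomics Workbench 20. Annotation release and strand setting are not given in the sources used here. TPM carry no depth. Reads were recovered by multiplying TPM by GENCODE 44 lengths (tolerance 0.02, whole for 666 of 666 member values and for 62.4% of 11996 symbols checked). They served for depth, read counts and shares of reads, and not for the tests. Groups came from the sample labels.

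From the deposited TPM, log2(TPM + 1) was tested by limma 3.58.1 in R 4.3.3 (variance trend, genes whose mean reached 1 TPM, 9 libraries per cell line or all 18), with Benjamini-Hochberg adjustment over all genes tested. The script was tested on simulated data. Ratios between classes of members and shares of TPM were given no test. The members and lists were chosen with earlier results of these data known. Genes named are the members, the ends of each list and list genes called. Fold changes are given for members with an unadjusted p under 0.05, with groups apart or called under an alternative.

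Whether replicate numbers pair the libraries was read from the correlation, across genes, of deviations from group means between libraries of the same number. Libraries of different numbers were not set against each other in this way. All 3 correlations were above 0.1 for THP1 DMSO and 24 h (0.146, 0.157 and 0.324), THP1 8 h and 24 h (0.183, 0.277 and 0.357) and MV4-11 8 h and 24 h (0.110, 0.408 and 0.441). Alternatives were another pseudocount, other filters, median-of-ratios scaling, leaving out the 5 noncoding RNAs, no variance trend, the replicate block, only the libraries compared, unadjusted p, Kruskal-Wallis with Dunn tests (unadjusted), the Dunn test alone and leaving out each library. Figures used Python 3.11.15 and matplotlib 3.10.9.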

Additional observations from a re-analysis of the deposited data

Results flagged for a closer look

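For 3 of 48 contrasts of ratio measures, every treated library lay on one side of the controls in MV4-11 and on the opposite side in THP1, and the difference between the cell lines in these ratios was not tested. Relative to the mean of the 13 mRNAs on the log2 scale, MT-ND1 differed from DMSO after 8 h by -0.26 in MV4-11 and 0.14 in THP1, MT-ND2 after 24 h by -0.27 and 0.16, and MT-CO2 after 24 h by 0.40 and -0.28. The limma interactions of the same transcripts on the log2(TPM + 1) scale were 0.17 (SE 0.41, adjusted p 0.939), 0.15 (SE 0.37, adjusted p 0.896) and -0.95 (SE 0.35, adjusted p 0.691).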

How the results depend on the processing

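None of the 50 fold changes named for members and listed genes changed sign over 1212 alternatives. These 50 had been picked by a low p, groups apart or a call, and some alternatives change only the test and not the estimate. Of the 98 other fold changes of mRNAs and rRNAs, 49 changed sign in some alternative, with main values of up to 0.767 in size. The members called went from 0 to 1 (8 h in MV4-11), 5 (8 h in THP1), 3 (24 h in THP1), 4 (24 h against 8 h in THP1) and 5 (interaction at 24 h) with unadjusted p. With median-of-ratios scaling they went from 0 to 1 for 24 h in THP1 and to 1 for 24 h against 8 h there. With the replicate block they went to 3 and 1, and with the block and that scaling together to 2 and 1. The block changed no other call of a member, and in the comparisons with too low a correlation (lowest 0.0339 for 8 h and 0.0660 for 24 h in MV4-11, 0.0440 for 8 h in THP1) the libraries share only a number. Leaving out each library gave 0 to 4 members for 24 h in THP1, 0 to 2 for 24 h against 8 h there and 0 to 1 between the cell lines, where leaving out the noncoding RNAs gave 2 (MT-ND3 and MT-ATP8) and no filter gave 1, MT-TS1 with 3 reads in all, in place of MT-ND3. Kruskal-Wallis with Dunn tests, both without adjustment, called 0 members in the 6 comparisons within cell lines. The Dunn test alone, chosen after seeing the data, gave 3 members for 24 h in THP1 (both rRNAs and MT-ND3) and 1 for 24 h against 8 h there (MT-ND6), which missed the Kruskal-Wallis threshold. The block with each library left out was also chosen then. In some of those fits MT-ND1, MT-CO2, MT-CO3, MT-ATP6, MT-ATP8 and MT-ND6 were called too for 24 h in THP1. For 24 h against 8 h, both rRNAs and MT-ND3 were called in some. How many of all genes these fits called was not counted, so the calls stand without a background. With all libraries the block called 2.13% of all genes for 24 h and 0.818% for 24 h against 8 h.

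For 24 h in THP1, NDUFS6 was the 1 listed nuclear gene called with median-of-ratios scaling, without the noncoding RNAs and with the block. The same held with the block and that scaling together, with unadjusted p and by the Dunn test alone. Beside it, that scaling called 0.711% of all genes, the block 2.13%, both together 1.31% and the Dunn test alone 1.18%. MTERF4 was the 1 for the interaction at 24 h with unadjusted p. Leaving out each library gave 12 to 20 listed genes between the cell lines. The complex I difference moved to -0.032 without the small and rare mRNAs and -0.27 with medians (24 h in THP1), to -0.089 and -0.31 (24 h against 8 h there), to 0.25 and 0.32 (between cell lines) and to 0.13 with medians (24 h against 8 h in MV4-11). Without the noncoding RNAs the log2 difference in mitochondrial share for 8 h in THP1 moved from -0.44 to -0.32, and that in mRNA share from -0.42 to -0.30. The causes were not tested. The tRNAs rest on 165 reads in all.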
